A study of Mus musculus with 17 samples.

Results

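The 37 long intergenic piRNA loci described here are band-named loci of 10000 nt or more, out of 100 band-named loci and 214 piRNA loci in all. A band-named locus carries its chromosome and cytogenetic band in its name, such as 7-qD2-11976. The labels do not say what the last number of the name stands for. The rule left out 22 other long loci, namely those on the bands 17-qA3.3, 7-qD1, 9-qC and 10-qC1 and 10 further loci. Several of those were set apart in earlier work on the same data for their abundance, their change without MAEL or their enrichment with anti-MAEL. The 37 loci therefore lack most of the extremes, and counts and medians over them are partly set by that choice. Size alone decided at the lower edge: 4-qB3-639 (10339 nt) and 10-qB5.1-221 (10400 nt) lay just inside, and 17-qC-59 (9883 nt) and 6-qF3-1063 (9875 nt) just outside.

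PIWI-interacting RNAs (piRNAs) are small RNAs of the germ line that guide PIWI proteins to transposon and other transcripts. In the mouse testis most of them are made in meiotic spermatocytes, where long single-stranded precursors are transcribed from intergenic loci and cut into piRNAs in the cytoplasm. Maelstrom (MAEL) is a germ cell protein of the granules in which this processing takes place and is needed for transposon silencing and male fertility.

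All libraries came from testis of mice of the strain 129SvJae, with no age given in the labels. Small RNA of 15 to 50 nt was sequenced from 2 wild-type and 2 Mael-/- libraries, called a and b in each genotype. RNA from wild-type testis was precipitated with anti-MAEL for 2 long-RNA libraries (a and b), for a size class of 50 to 150 nt and for one of 15 to 50 nt (1 library each), and with rabbit IgG for 1 long-RNA library. Whole testis was used, so fewer germ cells of a stage and less RNA per cell cannot be told apart in any comparison of genotypes. The mRNA and ribosome footprint tables of the same series list 0 piRNA loci and were not used.

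The small RNA libraries held between 4831638 and 44416966 counts, the long-RNA immunoprecipitates between 5747210 and 10863053, and the size-selected ones 68922710 (50 to 150 nt) and 172728187 (15 to 50 nt). Levels are given as CPM (counts per 1e6 counts of the library), and the densities of different loci are compared per kilobase of the size in the files. Shares of counts held by a locus are not corrected for its length. Each standard deviation (SD) is taken over 2 libraries. The labels do not tie the libraries to different mice, so a p-value here reflects no more than how these libraries vary, and that variation may be technical. The transcript IDs in the tables could not be paired with gene symbols (0 of 37991 matched), so Mael itself, other piRNA pathway genes and testis cell type markers were not analysed here.

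The loci ranged from 10339 to 53208 nt, with a median of 25068 nt, and lay on 23 bands of 14 chromosomes. Of these loci, 26 shared a band with another of the 37. The longest were 10-qB4-6488 (53208 nt) and 4-qC5-17839 (51472 nt), each alone on its band among the 37. The bands with 3 loci were 7-qD2, with 7-qD2-24830 (41152 nt), 7-qD2-40 (13066 nt) and 7-qD2-11976 (12445 nt), and 14-qA3, with 14-qA3-2286 (32152 nt), 14-qA3-3095 (27251 nt) and 14-qA3-284 (17009 nt). The pairs with the longest loci were 9-qA5.3-24188 (42650 nt) with 9-qA5.3-1495 (27693 nt), 12-qE-23911 (40241 nt) with 12-qE-7089 (35818 nt), and 18-qE1-36451 (37014 nt) with 18-qE1-1295 (17792 nt). On chromosome 15 the pairs were 15-qD1-4001 (36648 nt) with 15-qD1-17920 (27857 nt) and 15-qE1-1119 (35228 nt) with 15-qE1-8387 (22848 nt). Others were 13-qA5-208 (32293 nt) with 13-qA5-464 (17454 nt), 14-qC1-1261 (31827 nt) with 14-qC1-1010 (19176 nt), and 5-qF-4633 (25068 nt) with 5-qF-14508 (19641 nt). The remaining pairs were 6-qF3-8009 (18441 nt) with 6-qF3-3040 (10522 nt) and 10-qB5.1-5404 (18237 nt) with 10-qB5.1-221 (10400 nt). Single on their bands were 5-qG3-23659 (41518 nt), 6-qD1-2831 (31712 nt), 11-qE1-9443 (29370 nt), 17-qE1.1-7037 (24947 nt), 2-qG3-1029 (17888 nt), 7-qF3-3125 (16620 nt), 2-qE5-4 (13441 nt), 13-qA3.1-355 (10746 nt) and 4-qB3-639 (10339 nt). The files give neither coordinates nor strands for the loci, so neighbours on a band were not shown to adjoin.

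In wild type, the 37 loci together took 20.02% and 20.4% of small RNA counts in libraries a and b. In Mael-/- they took 20.1% and 17.2%. The mean shares of 20.2% ± 0.237 and 18.7% ± 1.99 (SD, n = 2) thus overlapped between genotypes. As a share of the counts at all piRNA loci the values were 24.4% ± 0.448 in wild type and 25.9% ± 0.973 in Mael-/-, where the Mael-/- libraries (25.2% and 26.6%) lay above both wild-type ones (24.0% and 24.7%). The 10 loci with the most counts held 62.0% to 64.5% of the counts of the 37 in every small RNA library, and the top 5 held 35.4% to 43.4%. The leading locus changed with genotype, from 7-qD2-11976 (7.62% in wild type a) and 2-qG3-1029 (7.57% in wild type b) to 13-qA5-464 in both Mael-/- libraries (12.2% and 15.2%).

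Per kilobase, the loci ranged in wild type from 1.13 to 1216 CPM per kilobase with a median of 149 (interquartile range 75.4 to 256). The median of the 22 long loci left out was 413 and that of the 41 shorter band-named loci 154, against 6.06 for the 114 loci that carry a gene's name. The most densely covered locus was 7-qD2-11976, with 15261 and 15013 CPM in wild type a and b, or 1216 ± 14.1 CPM per kilobase (SD, n = 2). In Mael-/- it held 10029 and 8266 CPM, below both wild-type libraries. The next was 2-qG3-1029, with 14743 and 15409 CPM in wild type and 16719 and 14236 in Mael-/-, where the genotypes overlapped. The third, 13-qA5-464, held 12949 and 12427 CPM in wild type and 24560.4 and 26172 in Mael-/-. With 1453 ± 65.3 CPM per kilobase, it was the densest of the 37 in Mael-/-. The locus 17-qE1.1-7037 held 14365 and 13790.4 CPM in wild type and 13188 and 11054 in Mael-/-. The locus 11-qE1-9443 held 13955 and 13704 against 13242 and 11351 CPM. The locus 12-qE-7089 held 14523 and 14172 against 9010.4 and 7845 CPM. In these last 3 loci both Mael-/- libraries lay below both wild-type ones, by little in the first 2. At the other end, 2-qE5-4 and 7-qD2-40 stood at 1.13 ± 0.0591 and 3.41 ± 0.414 CPM per kilobase in wild type, well under the next locus, 14-qA3-2286, at 26.9 ± 3.92. Locus size and wild-type density had almost no relation across the 37 loci (Pearson 0.11, Spearman 0.077, a description over loci that share libraries and length).

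**Figure D1:**
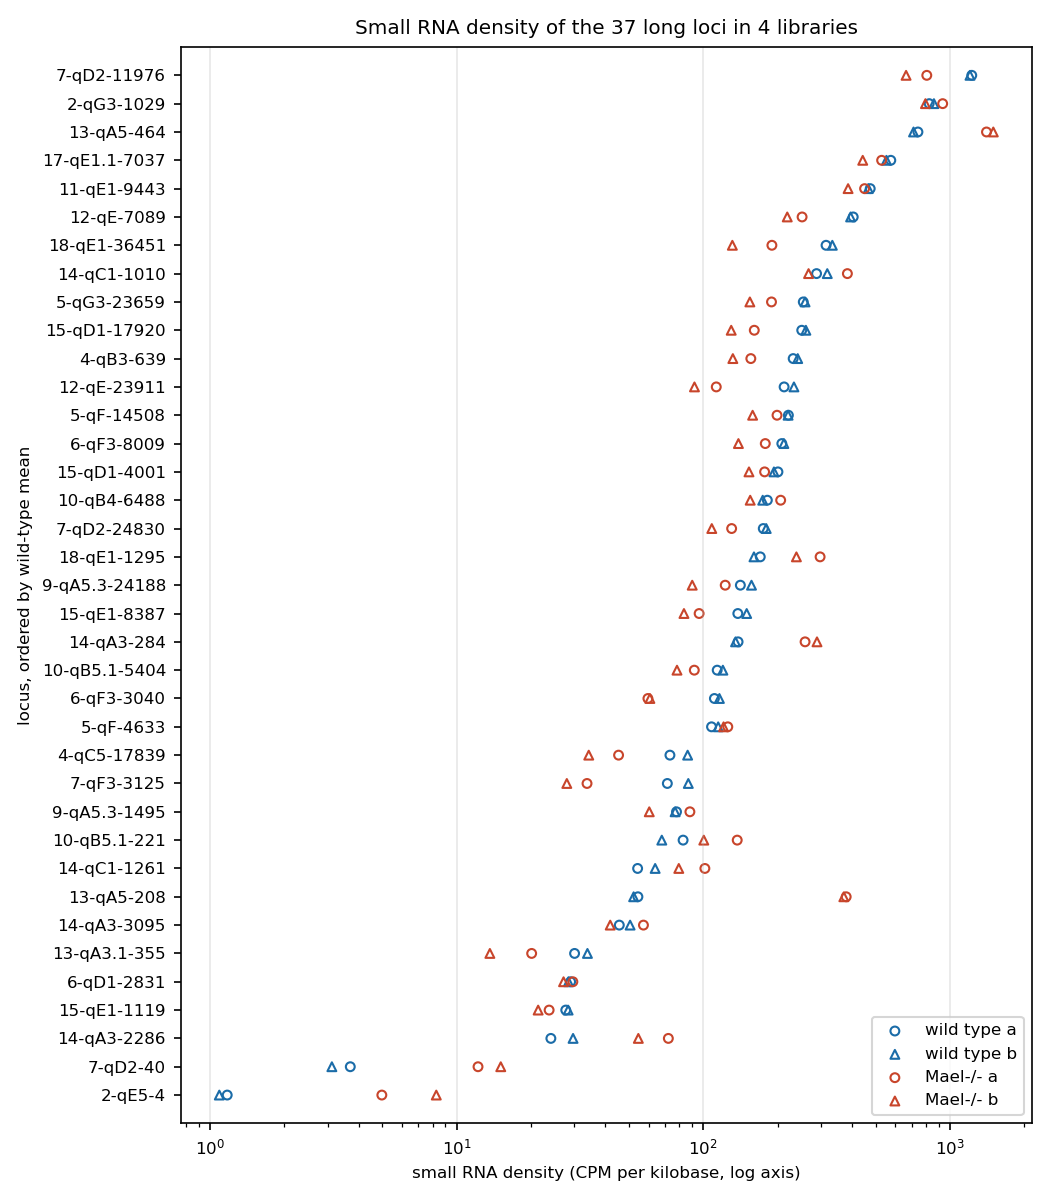
Small RNA density in CPM per kilobase (log axis) for each of the 37 loci in 2 wild-type and 2 Mael-/- libraries, 1 point per library, ordered by the wild-type mean. The wild-type libraries lie close together, and the widest separation of genotypes is at 13-qA5-208, 7-qD2-40 and 2-qE5-4 in the lower part, where Mael-/- is higher.

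The first comparison asked how small RNA from these loci differed without MAEL. As plain shares of a library, 21 of the 37 loci lay lower in both Mael-/- libraries than in either wild-type library, 10 lay higher and 6 overlapped. Over all 9906 features tested, 6.11% lay lower and 66.5% higher by the same measure. Most transcripts thus took a larger share of Mael-/- small RNA, while most of the 37 loci did not. In the edgeR quasi-likelihood test with TMM scaling, which sets the bulk of features at no change, the median log2 fold change of the loci was -1.41 (interquartile range -1.86 to -1.01), against 0.15 over all features. The 22 long loci left out had a median of -1.53, and the 40 shorter band-named loci tested one of -1.83. No test between these sets was made. All 37 loci passed the filter on low counts.

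By that test 3 of the 37 loci fell and 0 rose at an adjusted p under 0.05, beside 3.49% of all features lower and 3.82% higher. At an unadjusted p under 0.05, 20 loci were lower and 2 higher (12.3% and 17.2% of all features), and DESeq2 called 19 lower and 1 higher (6.71% and 5.03% of the 6837 features it tested). Without the filter on low counts edgeR called 0 loci lower and 0 higher (1.03% and 0.963% of 24188 features). Leaving out a library leaves 1 genotype with a single library, which the test then takes to vary like the other genotype. Leaving out wild-type a or wild-type b gave 0 calls in either direction. Without a Mael-/- library more loci were called instead, but the share of all features called was not counted for these fits. The sign turned at 1 locus without Mael-/- replicate a and at 5 without Mael-/- replicate b. The 2 Mael-/- libraries had unlike TMM factors, 1.18 and 1.97. The balance of calls moved with the scaling, from 3 lower and 0 higher with TMM to 13 and 8 with library totals (1.4% and 24.7% of features) and 12 and 9 when scaled to the total of all piRNA loci (1.11% and 27.1%). Relative to TMM, these scalings moved the median of all features by 1.26 and 1.47 on the log2 scale. Under 4 scalings (TMM, library totals, size factors and the total of all piRNA loci), 20 loci were lower in Mael-/- in each, 4 were higher in each, and 13 had a sign that depended on the scaling. With the letters a and b as a block, 25 were lower and 3 higher (17.7% and 23.4%).

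**Figure D2:**
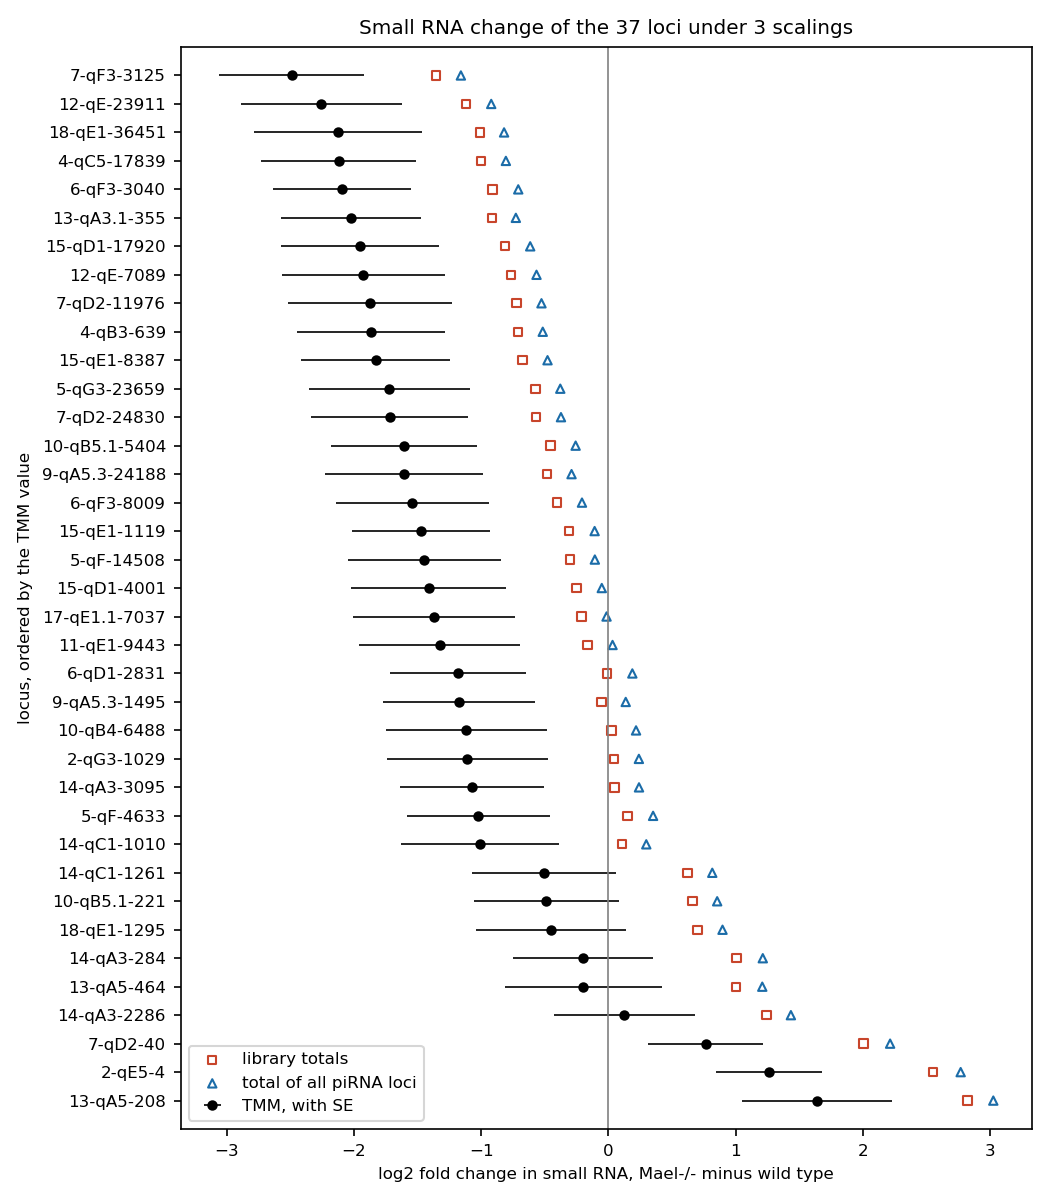
Log2 fold change of small RNA in Mael-/- minus wild type for the 37 loci (n = 2 libraries per genotype): black points give the edgeR value with TMM scaling and its standard error, squares the value with library totals and triangles the value relative to all piRNA loci. The loci keep nearly the same order, from 7-qF3-3125 (-2.49) to 13-qA5-208 (1.64), while the zero line moves through the middle of the list with the scaling.

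The deepest fall was at 7-qF3-3125. It held 1188 and 1445 CPM in wild type and 561 and 465 CPM in Mael-/-, so that both Mael-/- libraries lay far below. Its log2 fold change was -2.49 ± 0.568 (SE; adjusted p = 0.0298 by edgeR's quasi-likelihood test with Benjamini-Hochberg adjustment). The locus 6-qF3-3040 held 1167 and 1223 CPM in wild type and 628 and 639 CPM in Mael-/-, with a log2 fold change of -2.10 ± 0.541 (adjusted p = 0.0444 by the same edgeR test). The third locus to pass, 13-qA3.1-355, held 323 and 364 against 216 and 147 CPM, with a log2 fold change of -2.02 and an edgeR adjusted p of 0.04999, just under the threshold. All 3 are shorter than the median of the 37, and their wild-type densities of 79.2, 114 and 32.0 CPM per kilobase lay below the median of 149. These densities depend on the entry taken. At 13-qA3.1-355 an entry of 1478 nt held 99.7% and 99.5% of the wild-type counts of the 10746 nt used. At 7-qF3-3125 an entry of 5563 nt held 96.8% and 97.3% of those of the 16620 nt used. Their groups did not overlap. With 1 wild-type library left out, their log2 fold changes stayed near those values (-2.49, -1.995 and -1.96 without a, and -2.56, -2.28 and -2.14 without b). The calls were lost, with edgeR adjusted p values of 0.505, 0.601 and 0.555 without a and 0.290, 0.360 and 0.281 without b. With 1 Mael-/- library left out all 3 calls were kept, and the log2 fold changes were -3.40, -2.81 and -3.13 without a and -1.92, -1.63 and -1.36 without b. With the first entry of each locus, 13-qA3.1-355 had a value of -1.33 and was not called (edgeR, adjusted p = 0.0963).

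Other loci had estimates of like size that did not pass. The locus 12-qE-23911 held 8559 and 9380.5 CPM in wild type and 4543 and 3706 CPM in Mael-/-, a log2 fold change of -2.26 ± 0.632 (edgeR, adjusted p = 0.0529). The locus 18-qE1-36451 held 11647 and 12348 against 7024 and 4856 CPM, with -2.13 ± 0.660 (edgeR, adjusted p = 0.0645). The locus 4-qC5-17839 held 3770.4 and 4448 against 2334 and 1767 CPM, with -2.12 ± 0.610 (edgeR, adjusted p = 0.0567). In these 3 loci, too, both Mael-/- libraries lay below both wild-type ones, and the sign was the same under all 4 scalings.

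The locus with the largest gain in share was 13-qA5-208. It held 1754 and 1686 CPM in wild type and 12261 and 11996 CPM in Mael-/-, 7.05-fold more. Both Mael-/- libraries lay far above both wild-type ones, with little spread in either genotype. Its log2 fold change with TMM was 1.64 ± 0.592 and did not pass (edgeR, adjusted p = 0.0975). It was 2.82 with library totals and 3.03 relative to all piRNA loci, and passed in both (edgeR, adjusted p = 1.88e-04 and 5.81e-05). In DESeq2 and with the replicate block in edgeR it passed too (adjusted p = 0.0259 and 0.00297). With size factors, without the filter and with first entries it did not pass (edgeR, adjusted p = 0.180, 0.545 and 0.0998). The scarce locus 2-qE5-4 went from 15.8 and 14.7 CPM to 66.9 and 111 CPM, with a log2 fold change of 1.26 ± 0.418 (edgeR, adjusted p = 0.0767). The scarce locus 7-qD2-40 went from 48.4 and 40.8 CPM to 159.5 and 197 CPM, with 0.76 ± 0.451 (edgeR, adjusted p = 0.278). The locus 14-qA3-2286 went from 775 and 953 CPM to 2321 and 1753 CPM, with 0.12 ± 0.554 (edgeR, adjusted p = 0.898). These 4 were the loci with a value above 0 under all 4 scalings, and 3 of them had the lowest wild-type densities of the 37. Without Mael-/- replicate a the value of 14-qA3-2286 was -0.88. The loci 13-qA5-464 and 14-qA3-284 stood at 1.999-fold and 2.003-fold their wild-type CPM, the latter going from 2354 and 2299 CPM to 4399.7 and 4918 CPM. Their TMM values were -0.20 for both with the entry of most counts, and -1.75 and -1.80 with the first entry of each locus, so these 2 values depend on the entry taken.

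Between these ends lay loci whose genotypes overlapped and loci whose share of the library moved less than at the ends. The 6 loci with overlapping genotypes were 2-qG3-1029, 14-qC1-1010, 10-qB4-6488, 9-qA5.3-1495, 14-qA3-3095 and 6-qD1-2831. Of these, 6-qD1-2831 stood at 919 and 900.5 CPM in wild type and 938 and 860.4 CPM in Mael-/-, and 10-qB4-6488 at 9678 and 9268 against 10959 and 8246 CPM. Their sign depended on the scaling. With its first entry, 6-qD1-2831 had a log2 fold change of -1.96 and was called lower (edgeR, adjusted p = 0.0484). The locus 15-qE1-1119 also gained a call with its first entry, at -1.97 in place of -1.47 (edgeR, adjusted p = 0.0484 in place of 0.101). Besides the loci already given, the higher shares without overlap were at 18-qE1-1295, 10-qB5.1-221, 14-qC1-1261 and 5-qF-4633. The first went from 3029 and 2856 CPM to 5295 and 4245 CPM (1.62-fold), and 10-qB5.1-221 went from 861 and 706 CPM to 1428 and 1045 CPM (1.58-fold). At 14-qC1-1261 the levels were 1724 and 2031 CPM in wild type and 3231 and 2532 CPM in Mael-/-. The difference at 5-qF-4633 was small, from 2708 and 2881 CPM to 3152 and 3029.6 CPM. Lower shares by a wide margin were also found at 15-qD1-17920, from 6985 and 7259.8 CPM to 4485 and 3616 CPM (0.569-fold), and at 4-qB3-639, from 2393 and 2497 CPM to 1612 and 1363 CPM (0.608-fold). Both were lower under all 4 scalings and neither passed the edgeR test (adjusted p = 0.0688 and 0.0645).

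A ratio of 2 loci within a library does not depend on scaling, but it can depend on the entry taken for each locus. The 26 loci that share a band form 16 pairs, and in each the ratio of the locus more abundant in wild type to the other was taken in each library. The ratio was smaller in both Mael-/- libraries in 11 pairs, larger in 4 and overlapping in 1. Among 53 other same-band pairs of band-named loci, 41.5% were smaller and 45.3% larger without overlap, so separation of the genotypes by such a ratio was common. Pairs on a band with 3 loci share loci and are not independent. The clearest case was the pair on 13-qA5. There 13-qA5-464 held 7.38 and 7.37 times the counts of 13-qA5-208 in wild type a and b, and 2.003 and 2.18 times in Mael-/-. On 18-qE1, 18-qE1-36451 held 3.85 and 4.32 times the counts of 18-qE1-1295 in wild type and 1.33 and 1.14 times in Mael-/-. With the entries used, the order itself turned on 14-qA3. The ratio of 14-qA3-3095 to 14-qA3-2286 was 1.61 and 1.44 in wild type and 0.672 and 0.652 in Mael-/-. This turn depends on the entry taken for 14-qA3-2286. Its entry of 4207 nt held 53.8% and 56.7% of those counts in wild type and 23.9% and 16.5% in Mael-/-, and with it the order does not turn. In the other direction, 15-qD1-4001 and 15-qD1-17920 were about equal in wild type (1.05 and 0.977) and stood at 1.45 and 1.55 in Mael-/-. With the entries used, loci of the same band thus did not move by a common factor.

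**Figure D3:**
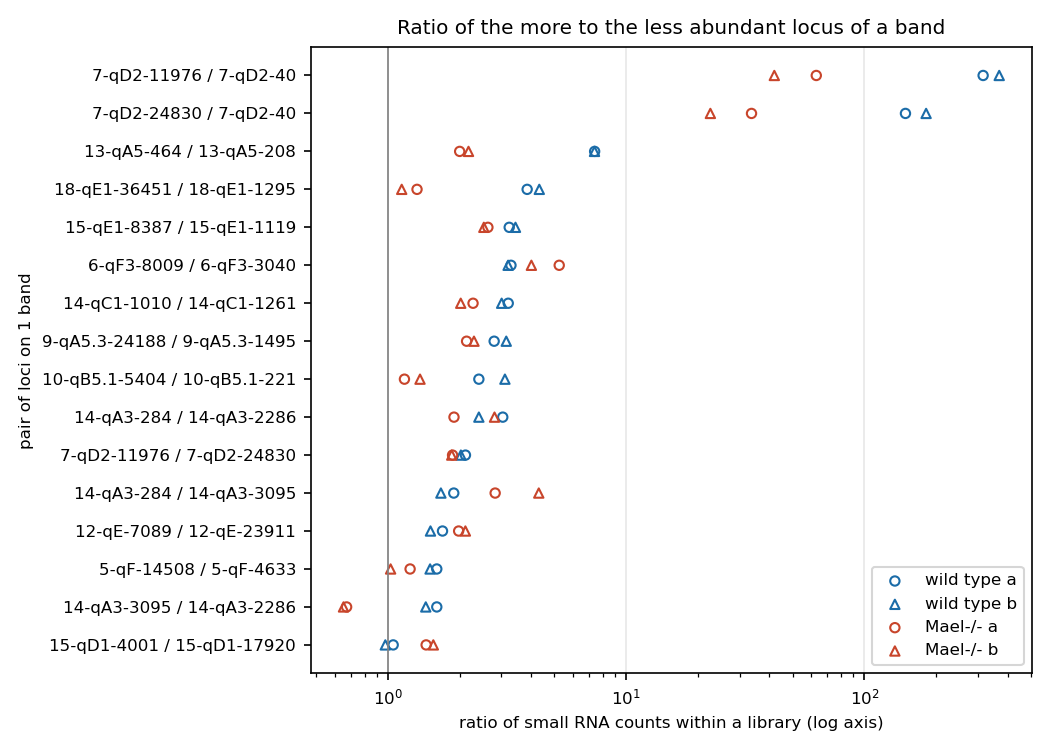
Ratio of small RNA counts of the locus more abundant in wild type to its neighbour on the same band (log axis), 1 point per library for 2 wild-type and 2 Mael-/- libraries, over 16 pairs. The ratio moves from about 7.38 to 2.09 on 13-qA5 and from 4.08 to 1.24 on 18-qE1, whereas 15-qD1, 12-qE and 6-qF3 move the other way.

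Many loci have several entries in the files, of different size and and the entry with the most counts was used above. Of the 37 loci, 27 had such further entries, 42 in all, and 10 had 1 entry. The files do not say which bases an entry covers. The count of a shorter entry relative to the entry used is again free of scaling. In 9 further entries of 8 loci this share differed by 5 points or more between genotypes, a margin chosen after the values were seen, and in all 9 it was lower in both Mael-/- libraries. Among 176 further entries of the other piRNA loci, 7.39% were lower and 8.52% higher by that margin. Counted without a margin, 21 of the 42 further entries were lower in both Mael-/- libraries, 10 were higher and 11 overlapped. The matching share among entries of the other piRNA loci was not counted, so nothing is read from these counts. Just under the margin, the entry of 16894 nt at 5-qF-14508 was 4.20 points higher in Mael-/- and that of 15074 nt at 18-qE1-1295 was 3.26 points higher. At 14-qA3-2286, an entry of 4207 nt held 53.8% and 56.7% of the counts of the whole 32152 nt in wild type and 23.9% and 16.5% in Mael-/-. With that entry alone the log2 fold change of the locus was -1.23 in place of 0.12, so the sign for this locus depends on the entry taken. At 10-qB5.1-5404 the entry of 6106 nt went from 86.1% and 87.2% to 66.0% and 59.9%. At 6-qD1-2831 the entry of 11827 nt went from 49.3% and 50.9% to 29.3% and 28.9%, and at 15-qE1-1119 the entry of 6405 nt went from 54.6% and 54.1% to 38.2% and 39.2%. At 2-qG3-1029 the entry of 11705 nt went from 71.2% and 71.4% to 54.9% and 58.7%. The other loci were 7-qF3-3125, where 2 further entries of 5494 and 5563 nt moved, 5-qF-4633 and 14-qA3-284.

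In the long RNA precipitated with anti-MAEL, most of these entries took a smaller part than in wild-type small RNA. The exception was 14-qA3-284, where the entry of 4662 nt held 18.8% and 28.4% with anti-MAEL against 8.54% and 9.53% in wild type. Most of these entries also took a smaller part in the IgG library, so this was not particular to anti-MAEL. Those of 14-qA3-284, 2-qG3-1029 and 5-qF-4633 took a larger part with IgG, at 67.5%, 77.4% and 97.1%. The entry of 14-qA3-2286 held 5.53% and 5.61% of the locus counts with anti-MAEL, under its 13.1% of the length. That of 10-qB5.1-5404 held 24.1% and 24.4%, under its 33.5%. With IgG these entries of 14-qA3-2286 and 10-qB5.1-5404 held 14.6% and 39.6%, above their share of the length. In wild-type small RNA both entries were above their share of the length. The reverse held at 13-qA5-464, where an entry of 15236 nt has 87.3% of the length of the 17454 nt used. It held 2.95% and 3.05% of the counts in wild-type small RNA, 37.4% and 48.6% in anti-MAEL long RNA and 98.8% with IgG. A longer entry of this locus, of 19444 nt, held 74.4% and 74.5% of the counts of the entry used in wild-type small RNA, and 222% and 244% in anti-MAEL long RNA. The small RNA and the long RNA of this locus were thus spread differently over its entries.

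**Figure D4:**
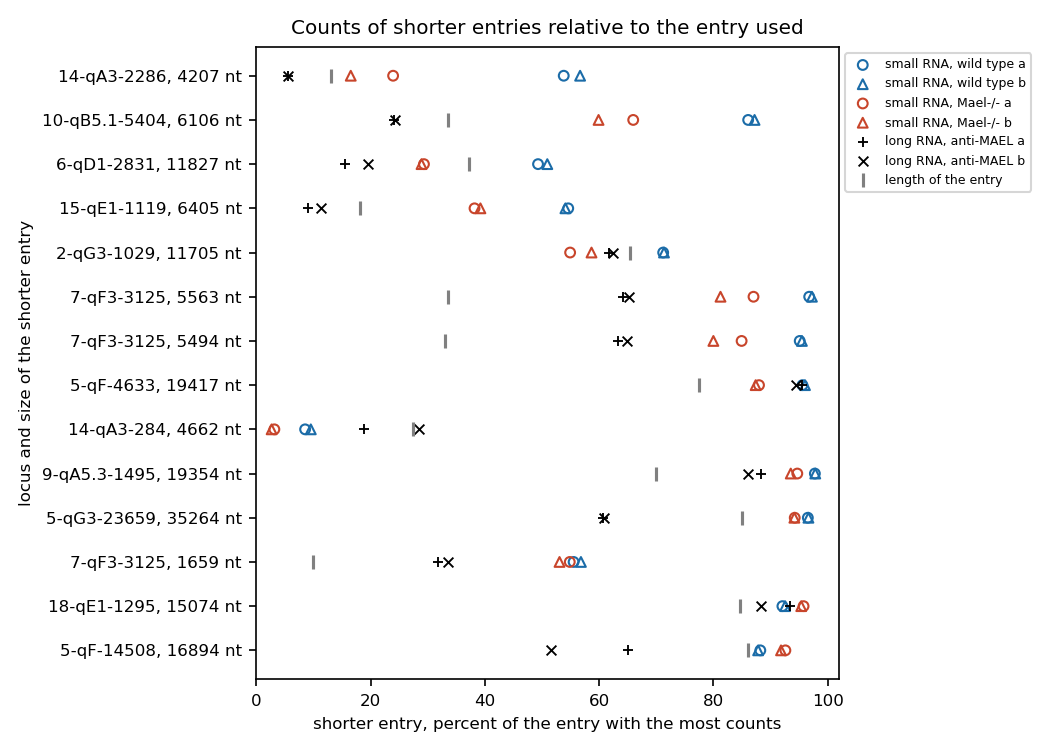
Counts of shorter entries as a percentage of the entry used, for entries whose share differed by at least 2 points between genotypes: circles and triangles are small RNA of 2 wild-type and 2 Mael-/- libraries, crosses the 2 anti-MAEL long-RNA libraries and grey bars the relative length. At 14-qA3-2286 the entry holds 53.8% and 56.7% in wild type, 23.9% and 16.5% in Mael-/- and 5.53% and 5.61% with anti-MAEL.

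The next comparison asked how much long RNA of these loci came down with anti-MAEL. Together they took 2.85% and 2.41% of counts in the anti-MAEL libraries a and b and 0.540% with IgG. The exact binomial 95% interval of the last value is 0.535 to 0.545% and, like the other intervals here, covers counting error only, since reads are not independent molecules. In 34 of the 37 loci both anti-MAEL libraries lay above the IgG library in CPM, compared with 16.9% of the 16066 features tested. The median locus stood at 513 CPM in the anti-MAEL mean and at 115 CPM in the IgG library. With TMM scaling the median log2 fold change was 2.62 (interquartile range 1.78 to 3.24), beside 0.02 over all features, 3.44 for the long loci left out, 1.33 for the shorter band-named loci and 0.31 for the gene-named loci. The direction for the list was the same under the 4 scalings, although relative to all piRNA loci the median was 0.20. Under these scalings 23 loci were higher in each and 1 was lower in each.

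The edgeR test called 0 of the 37 loci higher and 0 lower, beside 1.28% of all features called higher. Of the 22 long loci left out, 4 were called higher, and some were left out for that, so nothing is read from this 0. At an unadjusted p under 0.05 it gave 31 higher and 1 lower (6.76% and 0.865% of all features). DESeq2 called 30 higher and 0 lower, beside 2.65% of 13171 features higher and 0 lower. Without a filter on low counts edgeR called 25 higher and 0 lower (2.49% and 0.0377% of 26559 features). With library totals, or relative to all piRNA loci, it called 0 in either direction (0.629% higher with the first, 0.0747% lower with the second). There is 1 IgG library, and the test takes its spread to be that of the anti-MAEL libraries. Leaving out an anti-MAEL library leaves no degree of freedom for a test. The median was then 2.11 without replicate a and 3.05 without replicate b.

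The highest value was at 17-qE1.1-7037, with 1149 and 981 CPM in the anti-MAEL libraries and 71.0 CPM with IgG. Its log2 fold change was 4.30 ± 0.924 (SE; edgeR quasi-likelihood, adjusted p = 0.0636). The locus 13-qA5-208 had the highest anti-MAEL density of the 37, 105 CPM per kilobase on average, with levels of 3974 and 2836 CPM against 291 CPM with IgG and a log2 fold change of 3.97 ± 1.39 (edgeR, adjusted p = 0.346). At 14-qA3-2286 the levels were 924 and 836 against 80.0 CPM, with 3.85 ± 0.839 (edgeR, adjusted p = 0.0671), or 2.45 with its first entry. At 10-qB4-6488 they were 2050.2 and 1848 against 182 CPM, with 3.81 ± 1.09 (edgeR, adjusted p = 0.187). In all 4 loci the anti-MAEL libraries lay about an order of magnitude above IgG. The loci 13-qA5-208 and 14-qA3-2286 are 2 of the 4 loci that were higher in Mael-/- small RNA under every scaling. The other 2, 2-qE5-4 and 7-qD2-40, had much lower anti-MAEL values, -0.70 and 0.53.

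At the lower end, 2-qE5-4 held 20.2 and 38.1 CPM in the anti-MAEL libraries, under its 58.1 CPM with IgG. Its log2 fold change was -0.70 ± 0.275 (edgeR, adjusted p = 0.482). The locus 6-qF3-3040 held 118 and 164 CPM, on either side of its IgG level of 156 CPM. Its log2 fold change of 0.18 was -0.14 with library totals. The locus 13-qA3.1-355 held 30.8 and 33.9 CPM around 32.2 CPM with IgG. These 3 loci were the ones in which the anti-MAEL libraries were not both above IgG. Both 6-qF3-3040 and 13-qA3.1-355 are also among the 3 loci called lower in Mael-/- small RNA by the edgeR test with TMM. Under all 4 scalings 20 of the 37 loci were lower there, and 2-qE5-4 was higher. The locus 7-qD2-40 held 10.4 and 9.30 CPM against 8.73 CPM with IgG (counting interval 6.78 to 11.1). The locus 5-qF-4633 had the highest IgG density, 43.2 CPM per kilobase, at 1084 CPM against 1515 and 1201 CPM with anti-MAEL. It held 20.1% of the IgG counts of the 37 loci.

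Across the 37 loci the change in small RNA without MAEL and the enrichment with anti-MAEL had little relation (Pearson 0.024, Spearman 0.25). These are descriptions over loci, from separate libraries. Enrichment was somewhat larger at longer loci (Pearson 0.42, Spearman 0.38), and the small RNA change had coefficients of -0.19 and -0.16 with size. The anti-MAEL level had coefficients of 0.64 (Pearson) and 0.26 (Spearman) with the wild-type small RNA level and 0.72 and 0.49 with the Mael-/- level, all in log2 CPM, which depend on locus length.

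The size-selected anti-MAEL immunoprecipitates have 1 library each and no IgG library of their size, so they give values with no test. At 15 to 50 nt the 37 loci took 9.65% of counts, and at 50 to 150 nt 2.43%. As a share of the counts at all piRNA loci these were 35.8% and 36.7%, against 24.4% ± 0.448 in wild-type small RNA and 40.4% ± 0.0965 in anti-MAEL long RNA (SD, n = 2). The median log2 ratio of the 15 to 50 nt library to wild-type small RNA was -1.40 in CPM and 0.21 relative to all piRNA loci, so its sign depends on the scale. At 50 to 150 nt the values were -3.33 and 0.32. In CPM, 7 loci were at least 2-fold higher in the 15 to 50 nt library than in wild-type small RNA and 22 at least 2-fold lower, beside 34.8% and 46.4% of all 9906 features. The 7 were 7-qD2-40, 6-qD1-2831, 14-qA3-2286, 13-qA5-208, 10-qB5.1-221, 15-qE1-1119 and 14-qA3-284. At 50 to 150 nt 1 locus was 2-fold higher and 31 were 2-fold lower, beside 31.8% and 30.2%.

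The locus 7-qD2-40 stood apart. It held 48.4 and 40.8 CPM in wild-type small RNA but 1585 CPM in the 15 to 50 nt immunoprecipitate (counting interval 1579 to 1591), 35.5-fold more. At 50 to 150 nt it held 68.4 CPM, 1.53-fold its wild-type mean, and in long RNA it was at the IgG level. Relative to all piRNA loci its log2 ratio was 6.76 at 15 to 50 nt and 4.25 at 50 to 150 nt. The 35.5-fold value rests on 1 library. The locus 6-qD1-2831 held 919 and 900.5 CPM in wild-type small RNA and 7540.2 CPM at 15 to 50 nt, 8.29-fold more, and 1663 CPM at 50 to 150 nt. The locus 14-qA3-2286 held 775 and 953 CPM in wild type, 3643 CPM at 15 to 50 nt and 1082 CPM at 50 to 150 nt. The locus 13-qA5-208 was the 1 at least 2-fold higher in both, with 6265 CPM at 15 to 50 nt and 5509.5 CPM at 50 to 150 nt, where it held 22.7% of the counts of the 37 loci. The longest locus, 10-qB4-6488, held 9128 CPM at 15 to 50 nt, close to its 9678 and 9268 CPM in wild-type small RNA. At the other extreme 6-qF3-3040 held 102 CPM at 15 to 50 nt, 0.0853 of its wild-type level, and 2-qE5-4 held 1.56 CPM.

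Across the 37 loci, in log2 CPM, the 15 to 50 nt library had a Pearson r of 0.67 and a Spearman rho of 0.71 with anti-MAEL long RNA, and 0.58 and 0.18 with wild-type small RNA. The gap between these relations was thus seen mainly in ranks. The 50 to 150 nt library had 0.82 by both coefficients with anti-MAEL long RNA. Anti-MAEL and IgG long RNA had 0.72 and 0.53. These values describe loci that share locus length and, in part, the antibody.

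**Figure D5:**
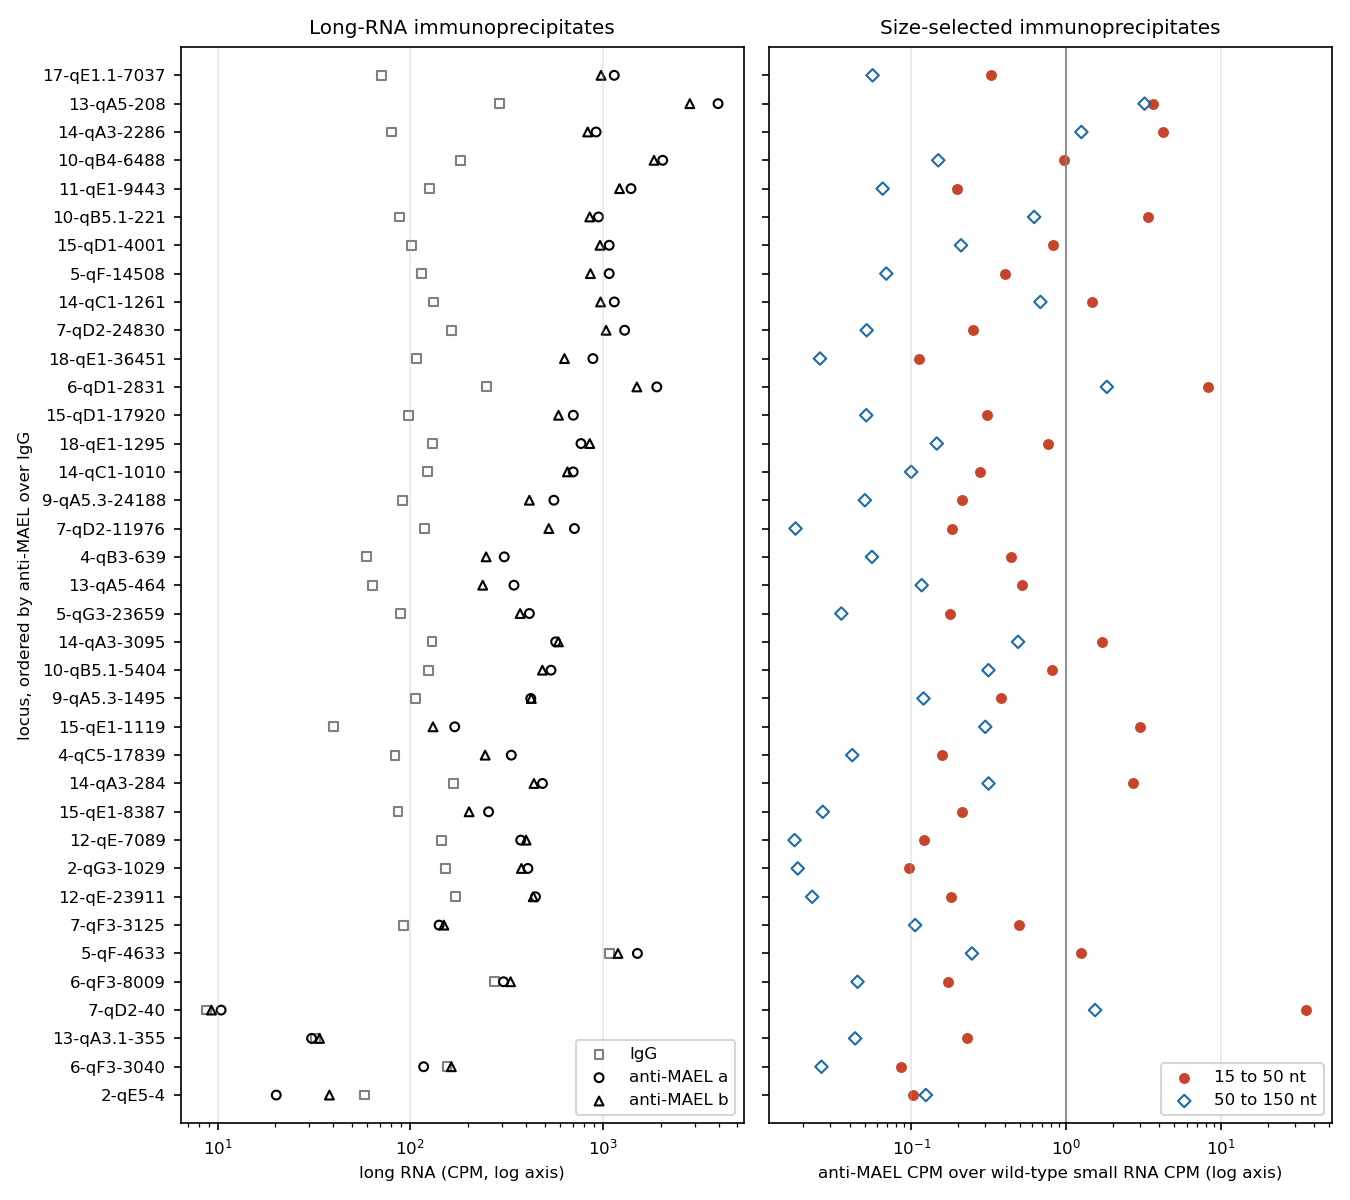
Left, long RNA in CPM (log axis) in 2 anti-MAEL libraries and 1 IgG library for the 37 loci, ordered by their log2 fold change. Right, the ratio of CPM in the size-selected anti-MAEL libraries (1 each) to mean wild-type small RNA. The anti-MAEL points lie above IgG in 34 loci, and 7-qD2-40 lies at a ratio of 35.5 at 15 to 50 nt while its long RNA is at the IgG level.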

How the data were processed

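The deposited files hold whole-number counts per Ensembl transcript or piRNA locus entry, whose totals differ between libraries as those of counts that were not normalized. Per the submitters' processing notes, CASAVA 1.8, Bowtie2 2.0.6, TopHat2 2.0.7 and mm9 were used, with no role given. The labels record neither the counting of reads with several matches nor the use of strand in counting, so loci that overlap or share repeats are uncertain. Per the labels' protocols, small RNA and size-selected libraries used a kit that keeps strand, and long-RNA libraries one that does not.

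The entry with the most counts over the 9 libraries that list loci stood for a locus, and library totals count each locus once. Tests used edgeR 4.0.16 in R 4.3.3 (quasi-likelihood, TMM scaling, filterByExpr, Benjamini-Hochberg adjustment over all features, adjusted p of 0.05), with genotype or antibody as the only term. Standard errors come from the F statistic. Ratios used a pseudocount of 0.5 CPM where given in log2. DESeq2 1.42.0, 3 other scalings, no filter, the first entry of a locus, left-out libraries and a replicate block were alternatives. The scripts were tested on simulated data. Python 3.11.15 with pandas 2.3.3, scipy 1.17.1 and matplotlib 3.10.9 did the rest. Loci were described in full by a rule of rank: 6 by density, 4 at each end of the small RNA change, 4 and 3 at the ends of the enrichment, and 3 by the 15 to 50 nt ratio, beside loci named for single values. The members and lists were chosen with earlier results of these data known.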

Additional observations from a re-analysis of the deposited data

How the results depend on the processing

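The number of the 37 loci called in small RNA was 3 lower and 0 higher with TMM, 13 and 8 with library totals, 12 and 9 when scaled to all piRNA loci, 1 lower with size factors in edgeR, 0 lower without a filter, 19 and 1 with DESeq2, and 0 to 34 lower and 0 to 4 higher when 1 library was left out. The share of all features called was not counted for size factors or for left-out libraries. With a left-out library, a genotype with a single library is taken to vary like the other genotype. Nothing is therefore read from the counts of those fits. With a replicate block on the letters a and b, 25 were lower and 3 higher. The letters share only a name in the labels, and same-lettered libraries deviated together over all features (correlation 0.51) but not over the 37 loci (-0.42). The median of -1.41 was -0.25 with library totals, -0.051 relative to all piRNA loci and -2.27 to -0.85 when 1 library was left out. With library totals the sign turned at 10-qB4-6488 (0.024), 10-qB5.1-221 (0.66), 13-qA5-464 (1.00), 14-qA3-284 (1.01), 14-qA3-3095 (0.049), 14-qC1-1010 (0.11), 14-qC1-1261 (0.62), 18-qE1-1295 (0.70), 2-qG3-1029 (0.043) and 5-qF-4633 (0.15). Relative to all piRNA loci these were 0.22, 0.86, 1.21, 1.21, 0.24, 0.30, 0.82, 0.90, 0.24 and 0.35, and 11-qE1-9443 (0.033), 6-qD1-2831 (0.19) and 9-qA5.3-1495 (0.14) turned too. When 1 library was left out, values ranged from -1.50 to 0.16 at 10-qB5.1-221, -0.86 to 0.25 at 13-qA5-464, -0.83 to 0.22 at 14-qA3-284, -1.47 to 0.087 at 14-qC1-1261, -1.38 to 0.14 at 18-qE1-1295 and -0.88 to 0.73 at 14-qA3-2286, each lowest without Mael-/- replicate a and highest without b. The value of 14-qA3-2286 was -1.23 with its first entry. Of the other single-locus values, 130 gained a call, 13 lost it and 234 kept direction and call.

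For anti-MAEL over IgG, 25 loci were called higher without a filter (2.49% of all features) and 30 with DESeq2 (2.65%), against 0 with TMM. With size factors in edgeR 6 were called higher, and with first entries 4. The share of all features was not counted for these 2 settings. The median was 0.20 relative to all piRNA loci and 2.11 to 3.05 when 1 anti-MAEL library was left out. By that scaling, which centres on the loci themselves, values turned at 12-qE-23911 (-0.61), 12-qE-7089 (-0.55), 13-qA3.1-355 (-1.96), 14-qA3-284 (-0.51), 15-qE1-1119 (-0.069), 15-qE1-8387 (-0.58), 2-qG3-1029 (-0.61), 4-qC5-17839 (-0.19), 5-qF-4633 (-1.66), 6-qF3-3040 (-2.10; -0.14 with library totals), 6-qF3-8009 (-1.75), 7-qD2-40 (-1.80) and 7-qF3-3125 (-1.31). The median log2 ratios of the size-selected libraries turned from -1.40 to 0.21 and from -3.33 to 0.32 relative to all piRNA loci. Median wild-type density was 198 CPM per kilobase with first entries, against 149. Beyond the scalings, which set what counts as no change, the cause of these differences was not tested.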
